A study of Homo sapiens with 6 samples.

Results

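Mitochondria form a network whose shape is set by membranes that fuse and membranes that divide. The mitoguardins MIGA1 and MIGA2 are outer membrane proteins that promote fusion and act together with the phospholipase PLD6, which makes phosphatidic acid from cardiolipin. The mitofusins MFN1 and MFN2 are GTPases that join the outer membranes, and OPA1 is the GTPase that joins the inner membranes and is cut by the protease OMA1 when mitochondria are stressed. Division is carried out by the dynamin-related GTPase DRP1, the product of DNM1L, which docks on outer membrane proteins such as MFF and FIS1. These 10 genes were taken by name from the 39261 transcripts with a gene name on the arrays. MIGA1 was put at the head of the set because its signal was lower after transfection with siH19-2 on these same arrays, and the others were added for their function. The values of all 10 genes in this comparison are therefore a description with no p-value, and calls among them are counted only to describe the set.

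Gene expression was measured on 6 Clariom D arrays of MIA-PaCa2 cells, an established cell line from a human pancreatic ductal adenocarcinoma (PDAC). In 3 arrays the cells carried siH19-2, a small interfering RNA against the long noncoding RNA H19, and in 3 arrays they carried NC, a nonsense siRNA control. The regular medium was high in glucose and contained serum. Per the methods, all cells were kept in serum-reduced medium before transfection with Lipofectamine and were given regular medium afterwards. The amount was 20 µg of each siRNA according to the labels but 50 nM according to the methods, and RNA was taken after 24 h. The study asked which genes lie downstream of H19, and siH19-2 was the only H19 siRNA analysed here.

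Signals are given on the log2 scale of the deposited, between-array normalized values, so a difference of 1 is a 2-fold change relative to the rest of the array. Arrays of the same group correlated at 0.993 to 0.995, and arrays of different groups at 0.991 to 0.993. The second principal component set siH19-2 replicate 3 (-21.1) apart from siH19-2 replicates 1 and 2 (16.6 and 11.1). H19 itself had log2 signals of 7.09 to 7.13 in siH19-2 against 7.36 to 7.43 in NC (adjusted p = 0.012 from limma). H19 thus differed by -0.30, which leaves 81.3% of the NC signal. Its adjusted p was 0.036 to 0.067 with single arrays left out and stayed under 0.05 in 2 of these 6 fits. Of 8 markers listed for epithelial and carcinoma cells, 6 had a signal above the median of the array on every array. VIM, a mesenchymal gene, was among these 6 and was the brightest of the 8. The epithelial genes CDH1 and EPCAM lay below the median of the array on every array. Of 20 markers of leukocytes, endothelium, fibroblasts, acinar and islet cells, 7 to 9 lay above it. Because brightness also depends on the probes, a low signal alone does not show that a marker was absent, nor a high signal that it was present. KRT19 fell by 0.40 on the log2 scale and LYZ, a leukocyte gene, fell by 0.26 (adjusted p = 0.032 and 0.023 from limma). In the remaining 7 and 19 markers no change passed. The part of these markers in the results was not tested, and in RNA from whole cultures fewer cells with a transcript and less of it per cell cannot be told apart.

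MIGA1 was much lower after transfection with siH19-2, whereas its paralog MIGA2 lay close to its control level. Its log2 signals (gene ID 374986) were 6.69, 6.67 and 6.68 in siH19-2 replicates 1 to 3, against 8.08, 8.03 and 8.06 in NC. The values of a group lay within a few hundredths of each other, and the groups were far apart. The difference was -1.38 (standard error 0.033), which leaves 38.5% of the NC signal (95% confidence interval 36.4% to 40.7%). Leaving out any one array gave -1.39 to -1.37. On the log2 scale the SD was 0.0081 in siH19-2 and 0.027 in NC (n = 3 each).

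MIGA2, the second mitoguardin (gene ID 84895), had log2 signals of 7.86, 7.88 and 7.83 in siH19-2, against 7.78, 7.79 and 7.84 in NC. The groups overlapped, since siH19-2 replicate 3 lay below NC replicate 3. The difference was 0.05 with a 95% confidence interval from -0.04 to 0.14, which leaves room for a rise to 110.5% of the NC signal or a fall to 97.5%. Within each array, the log2 signal of MIGA1 minus that of MIGA2 was -1.17, -1.20 and -1.15 in siH19-2, against 0.31, 0.24 and 0.22 in NC. The ratio of these 2 signals thus differed between the groups by -1.43 on the log2 scale, nearly all of it from MIGA1. Each mitoguardin is 1 probe set, and whether the proteins changed was not measured on the arrays.

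**Figure D1:**
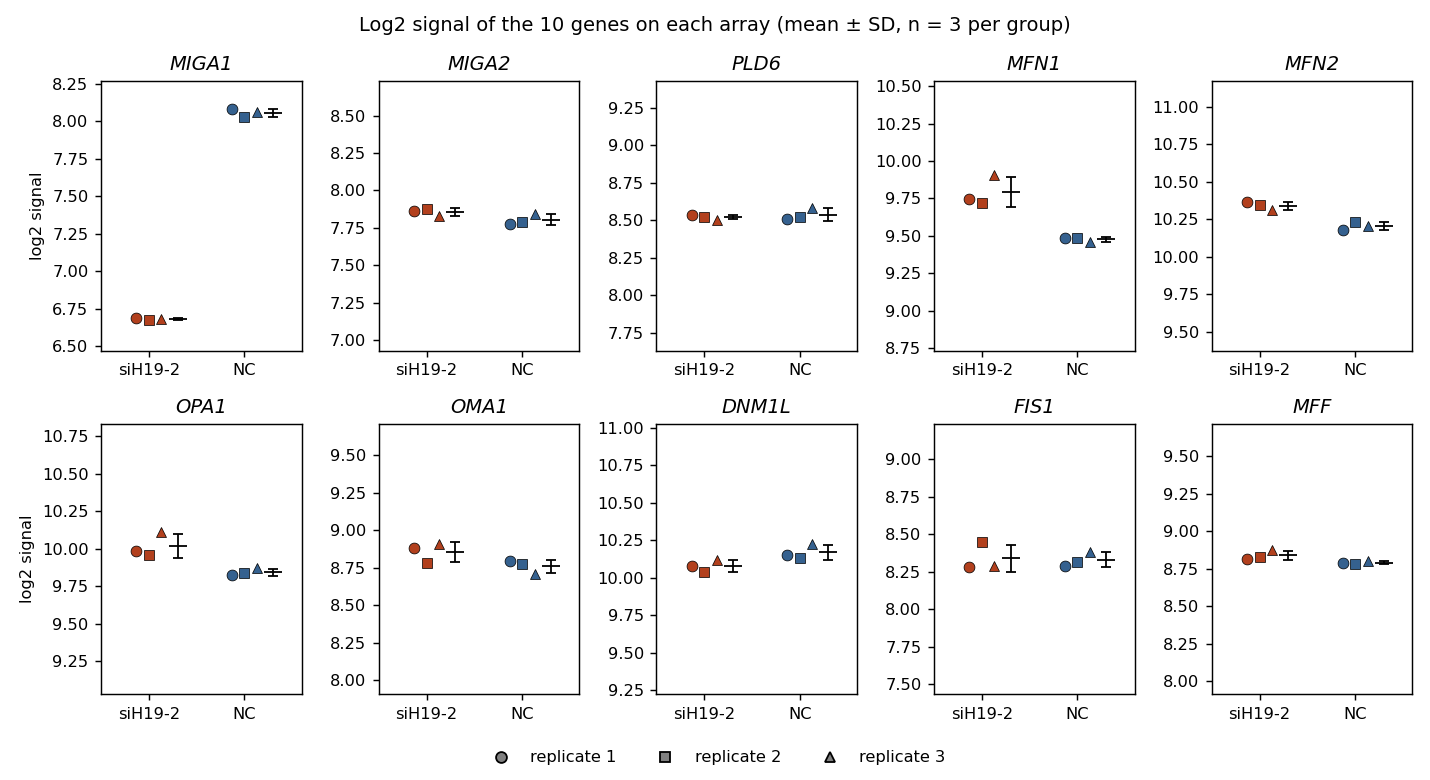
Log2 signal (vertical axis) of each of the 10 genes on the 3 siH19-2 arrays (left, red) and the 3 NC arrays (right, blue), with symbols for the replicate number and bars for the mean ± SD; each panel spans the same range of log2 units around its own level. MIGA1 differs by -1.38 and MFN1 by 0.32, and OPA1 has the next largest difference at 0.17.

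PLD6, the phospholipase that works with the mitoguardins (gene ID 201164), was nearly the same in both groups. Its log2 signals were 8.53, 8.53 and 8.51 in siH19-2, against 8.51, 8.52 and 8.59 in NC. The groups overlapped, and NC replicate 3 was the highest of all arrays. The difference was -0.02 (95% confidence interval -0.11 to 0.07), and it became 0.01 without NC replicate 3.

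The 3 GTPases of membrane fusion had higher means in siH19-2 than in NC, with differences far smaller in size than that of MIGA1, and MFN1 had the largest. MFN1, the first mitofusin (gene ID 55669), had log2 signals of 9.75, 9.72 and 9.90 in siH19-2, against 9.48, 9.49 and 9.46 in NC. The groups were apart, and siH19-2 replicate 3, the array that stood apart on the second principal component, was the highest. The difference was 0.32 (standard error 0.056), which is 124.4% of the NC signal with a 95% confidence interval from 113.0% to 137.0%. Without siH19-2 replicate 3 the difference was 0.26 (standard error 0.034).

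MFN2, the second mitofusin (gene ID 9927), had log2 signals of 10.36, 10.34 and 10.31 in siH19-2, against 10.18, 10.23 and 10.21 in NC. The groups were again apart, here with siH19-2 replicate 3 as the lowest of its group. The difference was 0.13 (95% confidence interval 0.05 to 0.22), and it was 0.15 without siH19-2 replicate 3. Within each array the log2 signal of MFN1 minus that of MFN2 was -0.62, -0.62 and -0.41 in siH19-2, against -0.70, -0.74 and -0.75 in NC. The ratio was 0.18 higher in siH19-2 with no overlap of the groups, but 0.11 higher without siH19-2 replicate 3, and the difference between the mitofusins was not tested.

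OPA1, the GTPase of inner membrane fusion (gene ID 4976), had log2 signals of 9.98, 9.96 and 10.11 in siH19-2, against 9.82, 9.84 and 9.87 in NC. All siH19-2 arrays were above all NC arrays, and siH19-2 replicate 3 was the highest as for MFN1. The difference was 0.17 (95% confidence interval 0.05 to 0.30), and 0.13 (standard error 0.036) without siH19-2 replicate 3. OMA1, the protease that cuts OPA1 (gene ID 115209), had 8.88, 8.78 and 8.91 in siH19-2, against 8.79, 8.78 and 8.71 in NC. Its groups overlapped in siH19-2 replicate 2, and the difference was 0.10 (95% confidence interval -0.02 to 0.22). Cutting of OPA1 by OMA1 takes place on the protein, which arrays do not measure.

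The genes of division showed small differences in both directions. DNM1L, which encodes DRP1 (gene ID 10059), had log2 signals of 10.08, 10.04 and 10.12 in siH19-2, against 10.15, 10.13 and 10.23 in NC. The groups were barely apart, with siH19-2 replicate 3 just below NC replicate 2, and the difference was -0.09 (95% confidence interval -0.20 to 0.01). MFF, the outer membrane receptor of DRP1 (gene ID 56947), had 8.82, 8.83 and 8.87 in siH19-2, against 8.79, 8.78 and 8.80 in NC. These groups were also just apart, in the opposite direction, with a difference of 0.05 (95% confidence interval -0.04 to 0.13). FIS1, another outer membrane protein of division (gene ID 51024), had 8.28, 8.45 and 8.29 in siH19-2, against 8.29, 8.32 and 8.38 in NC. All NC values lay between those of siH19-2 replicate 3 and siH19-2 replicate 2, and the difference was 0.01 (95% confidence interval -0.13 to 0.15). Set against DNM1L within each array, MFN1 was at -0.33, -0.31 and -0.21 in siH19-2. It was at -0.67, -0.64 and -0.77 in NC, a difference of 0.41. This pair joins the largest rise of the set with the largest fall after that of MIGA1, and its difference was not tested.

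**Figure D2:**
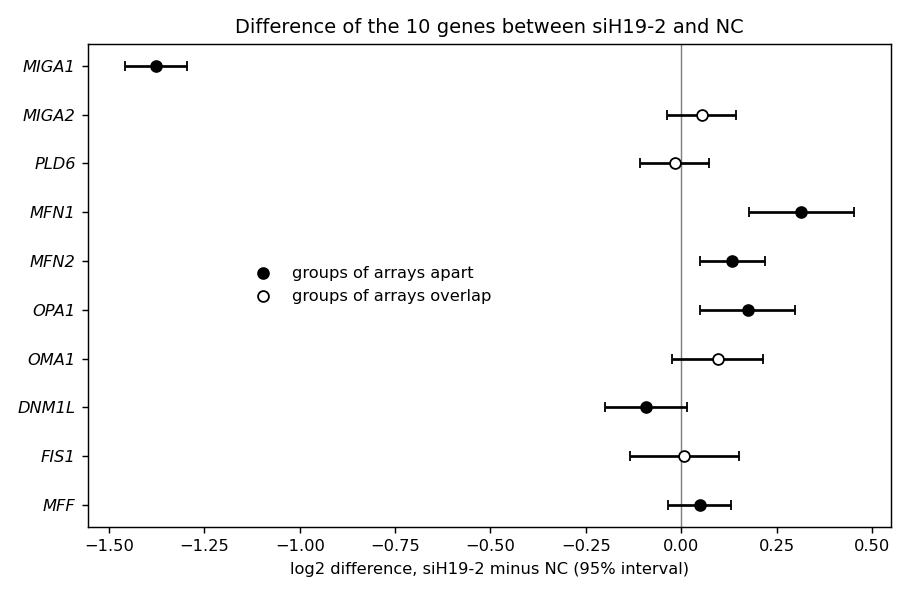
Log2 difference siH19-2 minus NC (horizontal axis) of each gene with its 95% confidence interval from limma; filled points mark genes whose 3 siH19-2 arrays lay all above or all below the 3 NC arrays, open points genes whose groups overlapped. MIGA1 stands alone at -1.38, and MFN1, OPA1 and MFN2 lie between 0.13 and 0.32.

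Counted over the set, 7 genes had a higher and 3 a lower mean in siH19-2, with a median difference of 0.05 beside 0.02 for all named transcripts. At an adjusted p under 0.05 from limma, MIGA1 was called lower and MFN1 higher, 2 of 10 genes, while 5.26% of all transcripts were called (2.64% higher and 2.63% lower). The call of MFN1 held without siH19-2 replicate 3 and was lost without any other single array, where the difference was 0.31 to 0.35. MIGA1 was the only gene of the set past the thresholds of the study (absolute log2 fold change above 1, p under 0.05 without adjustment), which 0.0764% of all transcripts passed. The groups did not overlap for 6 genes, 4 of them higher and 2 lower, and they did not overlap for 28.3% of all transcripts (18.3% higher and 9.98% lower). Among transcripts brighter than the median probe set, 9.84% were called. Of these brighter transcripts, 39.8% had groups that did not overlap (24.4% higher and 15.4% lower). Since the set was chosen on this comparison, nothing is read from these counts. All 10 genes were brighter than the median probe set, and the SD within groups was 0.020 to 0.074, against a median of 0.054 among the transcripts brighter than that probe set. Among all transcripts, 5.46% had a larger difference in either direction than MFN1, 18.6% than OPA1 and 27.6% than MFN2. The difference was smaller than that of most transcripts for MIGA2, MFF, PLD6 and FIS1, since 63.0%, 66.5%, 88.0% and 94.5% of them differed by more.

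Over the 6 arrays, the transcripts most like MIGA1 were those with a similarly tight and low level in siH19-2. The Pearson correlation with MIGA1 was 0.9996 for PSAT1, an enzyme of serine synthesis, and 0.9995 for both the BMP antagonist NOG and the kinase UHMK1. It was 0.9994 for HDDC2 and for CBL, a ubiquitin ligase of receptor tyrosine kinases. PSAT1 had log2 signals of 9.27, 9.30 and 9.28 in siH19-2, against 10.28, 10.25 and 10.30 in NC. The difference siH19-2 minus NC was -0.995 for PSAT1, -0.84 for NOG, -1.25 for UHMK1, -0.85 for HDDC2 and -0.78 for CBL. With 6 arrays in 2 groups such a correlation mainly follows the difference between the groups, and 221 transcripts exceeded 0.99.

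**Figure D3:**
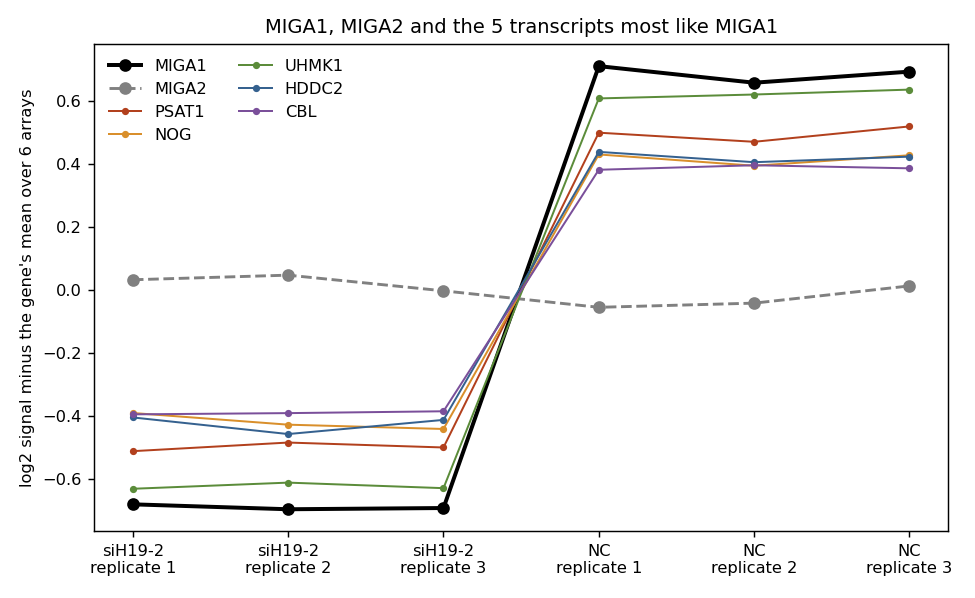
Log2 signal of MIGA1, MIGA2 and the 5 transcripts with the highest correlation to MIGA1 on each array (horizontal axis), each minus its own mean over the 6 arrays (vertical axis). The 5 transcripts follow MIGA1 with differences of -0.78 to -1.25, while MIGA2 stays near 0 on every array.

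The measured genes listed next to MIGA1 in the human reference annotation differed far less than MIGA1. Neighbours were taken in order of start position, and those after MIGA1 all overlap it. No gene past its far end was therefore examined. The only protein-coding gene among these neighbours was USP33, a ubiquitin protease. It had log2 signals of 8.54 ± 0.08 in siH19-2 and 8.50 ± 0.02 in NC (SD, n = 3 each; adjusted p = 0.73 from limma). The pseudogenes LOC653631 and NSRP1P1, which overlap MIGA1 in that annotation, had differences of -0.14 (adjusted p = 0.35) and -0.11 (adjusted p = 0.33). NSRP1P1 was lower in each siH19-2 array than in each NC array, and LOC653631 overlapped. Both were brighter than MIGA1, with means in NC of 9.54 for LOC653631 and 9.28 for NSRP1P1, against 8.06 for MIGA1. Which transcripts their probe sets report was not tested. The remaining neighbours by rule, the pseudogenes ACTG1P21, RN7SL370P and RNA5SP21, were not analysed here.

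Beyond the set, 11 lists of genes around mitochondrial shape, membranes and turnover held 162 measured genes, of which 15 rose, 8 fell and 139 did not pass an adjusted p of 0.05 from limma. This is 14.2% of these genes, and 152 of the 162 were brighter than the median probe set, where 9.84% of all transcripts were called. Leaving out any one array lowered the number of called list genes to between 4 and 13. All 23 are named here, and the adjusted p of 4 of them stayed under 0.05 whichever array was left out, namely PRKAA1, TOMM22, KIF1B and NBR1.

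Of 12 further genes of division and its adaptors none passed, with a median difference of 0.09. At an unadjusted p under 0.05 from limma there were 7, where 20.3% of all transcripts passed, and after Benjamini-Hochberg adjustment the methods' t-test called 0 and limma with an intensity trend and robust prior 1. The smallest p was that of GDAP1, an outer membrane protein linked to fission, with 6.40, 6.43 and 6.41 in siH19-2 against 6.73, 6.65 and 6.54 in NC (adjusted p = 0.080). Of 20 enzymes and anchors that modify DRP1 or its adaptors, 1 fell and 19 did not pass. This was PRKAA1, an alpha subunit of AMP-activated kinase, which in human cells phosphorylates MFF. The other alpha subunit, PRKAA2, had means of 5.29 in siH19-2 and 5.24 in NC, with overlapping groups (adjusted p = 0.58 from limma). Its signal was dim in both groups, below the array median of 6.16. PRKAA1 had log2 signals of 9.81, 9.77 and 9.88 in siH19-2, against 10.40, 10.38 and 10.44 in NC. It fell by 0.59 (limma's adjusted p = 0.0028, standard error 0.043, adjusted p 0.012 to 0.028 without any one array), to 66.5% of the NC signal.

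Among 15 genes of inner membrane quality control, 2 rose, none fell and 13 did not pass, with a median of 0.08. AFG3L2, a subunit of the m-AAA protease, had 9.67, 9.60 and 9.72 in siH19-2 against 9.31, 9.30 and 9.31 in NC. It rose by 0.36 (limma's adjusted p = 0.011, standard error 0.043), with an adjusted p of 0.028 to 0.063 when single arrays were left out. The matrix protease LONP1 rose by 0.20 (adjusted p = 0.032, and 0.071 or more without any one array). Of 12 genes of the MICOS complex and outer membrane sorting, 1 fell and 11 did not pass, with a median of -0.03. DNAJC11, which binds the MICOS complex, fell by 0.17 (adjusted p = 0.044, and 0.093 or more without any one array).

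The lists nearest to PLD6 and to MIGA2 are those of mitochondrial phospholipids and of contacts with other organelles. Of 20 genes for cardiolipin and phosphatidic acid, 3 rose and 17 did not pass, with a median of 0.04. The phospholipases DDHD2 and DDHD1, which act on phosphatidic acid among other lipids, rose by 0.25 and 0.35 (adjusted p = 0.017 and 0.036 from limma). CDS2, a CDP-diacylglycerol synthase, rose by 0.16 (adjusted p = 0.049). With single arrays left out the adjusted p was 0.049 to 0.085 for DDHD2, 0.037 to 0.13 for DDHD1 and 0.094 to 0.17 for CDS2.

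Of 20 genes of contacts with endoplasmic reticulum and lipid droplets, 2 rose, 1 fell and 17 did not pass. The calcium channel ITPR2 had 7.30, 7.13 and 7.31 in siH19-2 against 6.83, 6.74 and 6.69 in NC, and rose by 0.49 (adjusted p = 0.016). The lipid transfer protein OSBPL5 rose by 0.24 (adjusted p = 0.042), whereas its relative OSBPL8, with 9.52, 9.49 and 9.58 in siH19-2 against 9.89, 9.84 and 9.90 in NC, fell by 0.35 (adjusted p = 0.010). The adjusted p from limma was 0.026 to 0.075 for ITPR2, 0.064 to 0.15 for OSBPL5 and 0.023 to 0.061 for OSBPL8 with single arrays left out.

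Of 12 genes of mitochondrial movement, 3 rose and 9 did not pass. The kinesin KIF1B had 8.53, 8.50 and 8.55 in siH19-2 against 8.17, 8.17 and 8.15 in NC, and rose by 0.37 (limma's adjusted p = 0.0052, standard error 0.033, adjusted p 0.021 to 0.040 without any one array). ARMCX3, an outer membrane protein, and the motor adaptor TRAK1 each rose by 0.25 (adjusted p = 0.018 and 0.043, and 0.053 or more without any one array).

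Of 16 genes of mitophagy, the removal of mitochondria by autophagy, 3 rose, 1 fell and 12 did not pass, with the highest median of the 11 lists at 0.12. The autophagy receptor NBR1 had 8.79, 8.78 and 8.78 in siH19-2 against 8.45, 8.40 and 8.42 in NC, and rose by 0.36 (limma's adjusted p = 0.0049, standard error 0.032, adjusted p 0.021 to 0.039 without any one array). The receptors TAX1BP1 and CALCOCO2 rose by 0.32 and 0.21 (adjusted p = 0.025 and 0.036), with 0.045 to 0.10 and 0.071 to 0.14 when single arrays were left out. FBXO7, a partner of PINK1 and Parkin, was the gene that fell, by 0.23 (adjusted p = 0.037 from limma, and 0.067 or more without any one array).

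TOMM22, a receptor subunit of the outer membrane translocase, had the largest change of the 162 list genes. Its log2 signals were 8.65, 8.66 and 8.68 in siH19-2, against 8.02, 7.99 and 7.90 in NC. It rose by 0.69 (limma's adjusted p = 0.0018, standard error 0.043, adjusted p 0.013 to 0.019 without any one array), to 161.6% of the NC signal. The other changed member of that 9-gene list, the small subunit TOMM6, fell by 0.24 (adjusted p = 0.037, and 0.041 to 0.13 with single arrays left out), and 7 did not pass.

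Of 16 genes that maintain and transcribe mitochondrial DNA, 1 rose, 3 fell and 12 did not pass. RRM2B, a ribonucleotide reductase subunit, had 7.83, 7.72 and 7.85 in siH19-2 against 8.23, 8.18 and 8.30 in NC, and fell by 0.44 (adjusted p = 0.013). The helicase TWNK fell by 0.33 (adjusted p = 0.0069) and, of the fits with 1 array left out, missed the threshold in that without NC replicate 1, at 0.051. The adjusted p of RRM2B was 0.036 to 0.066 with single arrays left out. The topoisomerase TOP1MT rose by 0.18 (adjusted p = 0.037, and 0.074 or more without any one array), and the nuclease MGME1, the last of the called genes of that list, fell by 0.24 (adjusted p = 0.045, and 0.083 or more without any one array). Of 10 transcriptional regulators of mitochondrial biogenesis none passed from limma, with a median of 0.02. At an unadjusted p under 0.05 there were 3, and after Benjamini-Hochberg adjustment the methods' t-test called 0 and limma with an intensity trend and robust prior 1. The smallest p was that of PPRC1, with 8.98, 8.99 and 8.99 in siH19-2 against 9.14, 9.18 and 9.10 in NC (adjusted p = 0.082). PPARGC1A, a coactivator of mitochondrial genes, differed by 0.06. Its signal was dim, with means of 4.63 in siH19-2 and 4.57 in NC, below the array median of 6.16.

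**Figure D4:**
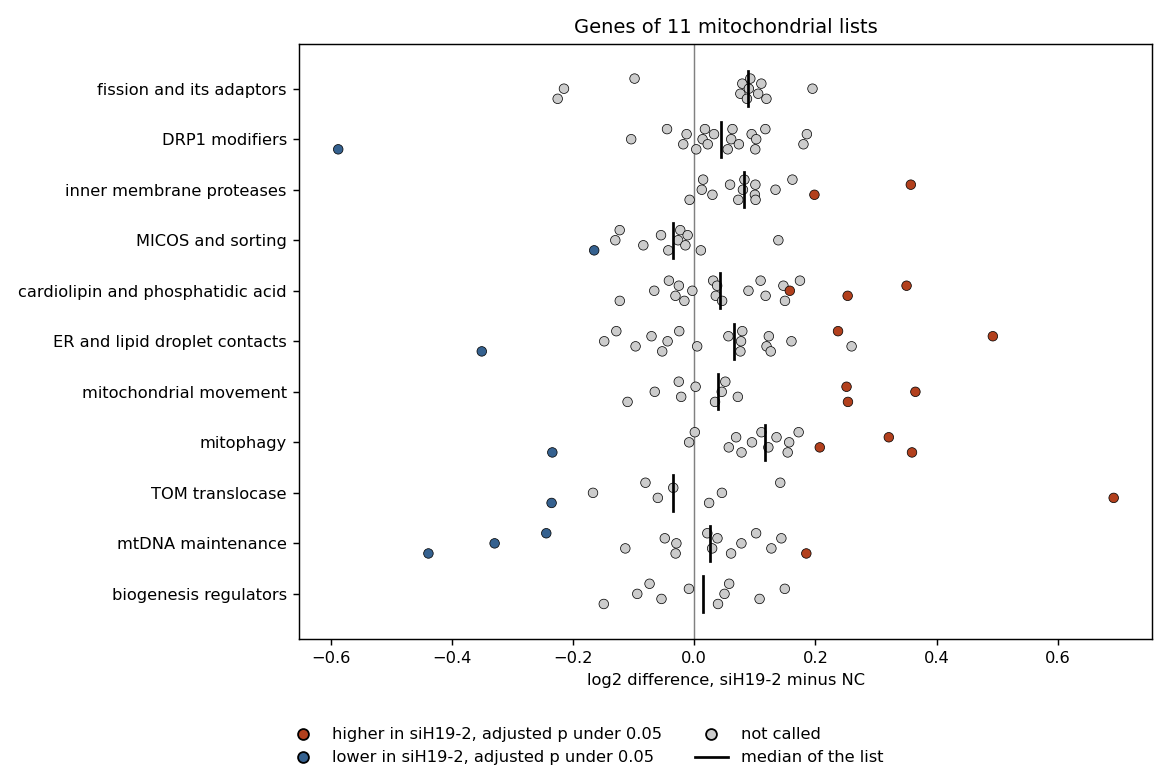
Log2 difference siH19-2 minus NC (horizontal axis) of the 162 genes of 11 lists (rows), 1 point a gene, red where higher and blue where lower at an adjusted p under 0.05 from limma and grey where not called, with a line at each list's median. Most points lie within 0.2 of 0, TOMM22 is the farthest at 0.69 and PRKAA1 the lowest at -0.59.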

How the data were processed

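Per the labels, arrays were assigned to siH19-2 or NC. The authors deposited log2 signals, normalized between arrays, for 1 probe set a gene on each array. Their methods give limma for normalizing and for differential expression, and the statistics section gives JMP for the array data, so which tool made these values is uncertain. Background correction and genome build: not given in the sources used here. A second deposited table gave gene names and the authors' log2 group means, which equalled the means of the arrays. Its columns of the authors' own comparison (differences, test statistics, p-values) were not used.

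Log2 differences came from limma 3.58.1 under R 4.3.3 (lmFit, then eBayes, two-sided, 4 residual and 1.92 prior degrees of freedom), with Benjamini-Hochberg adjustment over 39261 named probe sets and no filter on dim ones. The 10 genes and the gene lists were chosen with earlier results of these data known. Named genes were the 10 members, H19, and up to 3 called genes per list or else the gene with the smallest p. Further named genes were the 5 transcripts most correlated with MIGA1 and with MIGA2, and antisense RNAs or pseudogenes named after members. The last were the 3 genes before and the 3 after MIGA1, ordered by start, in the RefSeq table of assembly GRCh38.p14. FBXO7, MGME1, PPARGC1A and genes overlapping a member were added after their values were seen. Of 205 list entries, 184 were found by symbol and 6 by RefSeq gene ID. The other 15, transcripts of mitochondrial DNA, were not analysed here. The fit was tested on simulated data. Alternatives were another prior, a filter on dim probe sets, other scalings, Student's t-test, another threshold, the replicate block and each array left out. The methods give Student's t-test with Bonferroni-Holm for quantitative data and limma for the arrays. Here the t-test was also run with Benjamini-Hochberg adjustment. The labels do not say whether the arrays came from separate cultures, so the spread behind the p-values is that of these arrays alone and may be technical. With 3 against 3 arrays the number of arrays limits the precision, and no exact permutation p can fall below 0.1.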

Additional observations from a re-analysis of the deposited data

How the results depend on the processing

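The difference of MIGA1 stayed between -1.39 and -1.37 under every alternative run. Of the other 9 genes of the set, 7 kept their sign under each, and FIS1 (-0.05 to 0.04) and PLD6 (-0.03 to 0.01) did not. None of the 26 named genes of the lists changed direction under these alternatives. H19 and TWNK missed the threshold with the replicate block and with Bonferroni-Holm, as did each other called gene of the lists.

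The number of called transcripts, 2067 of 39261, became 4058 of the 19630 brighter probe sets and 3449 under a robust prior with intensity trend. It was 74 with the replicate block, 12 by Student's t-test with Bonferroni-Holm and 30 at the thresholds of the study. Without any single array it was 464 to 1078. Of the 10 genes, 2 were called, but 4 (MIGA1, MFN1, MFN2 and OPA1) among the brighter probe sets, where 4058 of 19630 were called. Only 1, MIGA1, was called with the replicate block, at the thresholds of the study and by Student's t-test with either adjustment. Without any single array the number called was 1 to 2. Of the 162 list genes, 23 were called, against 49 under the robust prior and 53 of the 152 among the brighter probe sets. The number was 4 to 13 without any single array, and 0 with Bonferroni-Holm and at the thresholds of the study. The replicate block also gave 0 from limma, although 60 list genes then had an unadjusted p under 0.05. Same-numbered arrays deviated from their group means with correlations of 0.0052 to 0.0099 over all named transcripts. Whether the replicate numbers pair the arrays is not given in the labels. The causes of these shifts were not tested.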

Other observations

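Some genes of the set overlap other annotated transcripts, whose signals could be shared. OPA1-AS1, an antisense RNA of OPA1, had a log2 difference siH19-2 minus NC of -0.05 (limma's adjusted p = 0.79, standard error 0.075), while OPA1 was 0.17 higher. LOC102724808, a long noncoding RNA that also overlaps OPA1, was dim and varied between arrays. It had 3.19 ± 0.57 in siH19-2 and 3.38 ± 0.78 in NC (SD, n = 3 each; adjusted p = 0.86 from limma). The pseudogene LOC100420981, which overlaps DNM1L, had 5.91 ± 0.09 in siH19-2 and 6.02 ± 0.20 in NC (SD, n = 3 each; adjusted p = 0.62 from limma). DAB1, a signalling adaptor of neurons whose annotated span overlaps OMA1, had 5.18 ± 0.03 in siH19-2 and 5.09 ± 0.02 in NC (SD, n = 3 each; adjusted p = 0.24 from limma), with the groups apart. For MIGA2 the highest correlation over the 6 arrays was 0.998, with LOC100130861, followed by SLC4A11, LINC00680, CIC and NOS2, and 5 transcripts exceeded 0.99.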
